A study of Mus musculus with 26 samples.

Results

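WB is an immortalised line of mouse embryonic fibroblasts, and its response to v-src was measured on 5 Affymetrix arrays. On 2 of them (replicates 2 and 3) the WB cells carried pBabe-human v-src, as the labels write the v-src vector, and on 3 they carried pBabe-puro, the same type of retroviral vector without an insert. The arrays were chosen by their labels alone, 5 of the 26 in the series, and every gene that passed the filter on signal is described. The other arrays hold the lines WA and WC with the same vectors and all 3 lines with a human c-myc vector, and the series was made to test a human breast cancer signature of growth without anchorage. The labels do not say how the lines were immortalised, whether WB is 1 clone, or whether replicates are separate cultures, so the p-values below rest on differences between arrays that could be technical ones.

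v-Src is the viral, constitutively active form of the tyrosine kinase Src. It phosphorylates proteins of focal adhesions, podosomes and caveolae and signals through ERK, PI3-kinase and STAT3. Fibroblasts transformed by it are known to round up, lose actin stress fibres and pericellular matrix, secrete proteases and cytokines, and grow without attachment to a surface.

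Values are MAS5 signals in arbitrary units, scaled on each array to the same trimmed mean, and a change is v-src minus empty vector in log2(signal + 23), which understates the change of dim genes. A gene is said to have risen or fallen where limma's adjusted p was below 0.05 over the 13018 genes tested. By that measure 1558 genes (12.0%) rose and 1762 (13.5%) fell in WB, 3320 in all (25.5%). Counts for the gene lists below are to be read against these shares. At least 2-fold changes numbered 490 up (3.76%) and 351 down (2.70%). Rises reached further than falls: 30 genes rose at least 8-fold and 13 at least 16-fold, against 20 and 3 that fell as far. Both v-src arrays lay above all 3 empty-vector arrays for 3694 genes (28.4%) and below them for 3677 (28.2%), whether or not the change was called. Without v-src replicate 2 the counts dropped to 1009 up and 1031 down, while those of at least 2-fold were 423 and 310. The 2 v-src arrays correlated at r = 0.981 across genes, the empty-vector arrays at 0.982 to 0.983 with each other, and v-src with empty-vector arrays at 0.925 to 0.939. The 3′ to 5′ signal ratios of Gapdh, a sign of RNA integrity, were 0.80 to 0.831 on the 5 arrays.

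**Figure D1:**
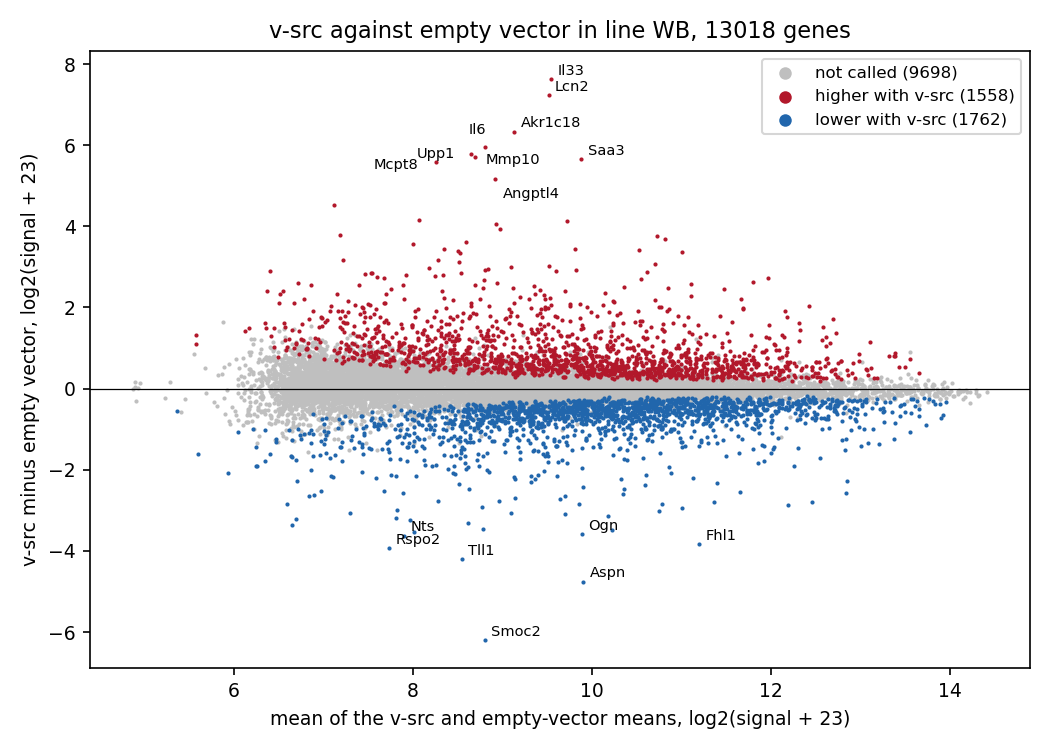
Change with v-src in line WB (vertical axis, v-src minus empty vector in log2(signal + 23)) against the mean level of each gene (horizontal axis, same scale), one point a gene, coloured by call. The 1558 genes that rose reach 7.64, and the 1762 that fell reach -6.19 at Smoc2.

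The 15 largest rises in WB included genes of 2 cytokines and 2 acute-phase proteins, chosen here after their values were seen. Il33, a nuclear alarmin cytokine released from damaged cells, had signals of 10247 and 10790 with v-src, against 44.4, 58.1 and 4.21 with empty vector. The groups were far apart, and the change was 7.64 ± 0.38 (log2, SE, adjusted p = 6.16e-13). Lcn2, a siderophore-binding lipocalin of the acute phase, had signals of 9911 and 8009 with v-src, against 29.2, 38.0 and 44.0 with empty vector. Its change of 7.22 ± 0.34 was the second largest in the line (adjusted p = 3.97e-13). Il6, the cytokine that signals through gp130 to STAT3, had signals of 3816 and 3198 with v-src, against 7.68, 64.6 and 44.2 with empty vector. It rose by 5.96 ± 0.37 (adjusted p = 1.79e-11). Saa3, an acute-phase apolipoprotein, had signals of 7148 and 6235 with v-src, against 154, 85.2 and 97.7 with empty vector, a rise of 5.66 ± 0.45.

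The other large rises included 3 enzymes, 2 matrix proteases and a lipase inhibitor. Akr1c18, a hydroxysteroid dehydrogenase that inactivates progesterone in mice, had signals of 5203 and 4841 with v-src, against 26.6, 73.2 and 28 with empty vector (6.34 ± 0.38). Upp1, uridine phosphorylase, had signals of 3360 and 2599 with v-src, against 9.93, 39.4 and 53.7 with empty vector (5.78 ± 0.44). Mcpt8, a mast cell and basophil protease, had signals of 2239 and 1957 with v-src, against 39.9, 17 and 11.8 with empty vector (5.58 ± 0.44). None of these groups overlapped. Mmp10, stromelysin-2, had signals of 3014 and 2902 with v-src, against 36.9, 37.5 and 29.4 with empty vector (5.70 ± 0.36). Mmp13, a collagenase, had signals of 643 and 639 with v-src, against 4.81, 2.89 and 11 with empty vector (4.52 ± 0.33). Angptl4, a secreted inhibitor of lipoprotein lipase, had signals of 2893 and 2818 with v-src, against 93.6, 57.4 and 33.3 with empty vector (5.15 ± 0.42), though a second, dimmer probe set of the gene moved by 0.30 only. The remaining members of the 15 largest rises were the urea transporter Slc14a1 (4.16), the tetraspanin Cd53 (4.13), the scavenging chemokine receptor Ackr3 (4.05), the fatty acid binding protein Fabp4 (3.94) and extracellular superoxide dismutase Sod3 (3.80). The dimmer probe sets of Fabp4 moved by 0.15 to 4.52.

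By limits set after the values were seen, 9 genes were below a signal of 100 on every empty-vector array and above 1000 on both v-src arrays: Il33, Lcn2, Akr1c18, Il6, Upp1, Mmp10, Mcpt8, Angptl4 and Slc14a1. Smoc2 and Tll1 did the opposite.

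**Figure D2:**
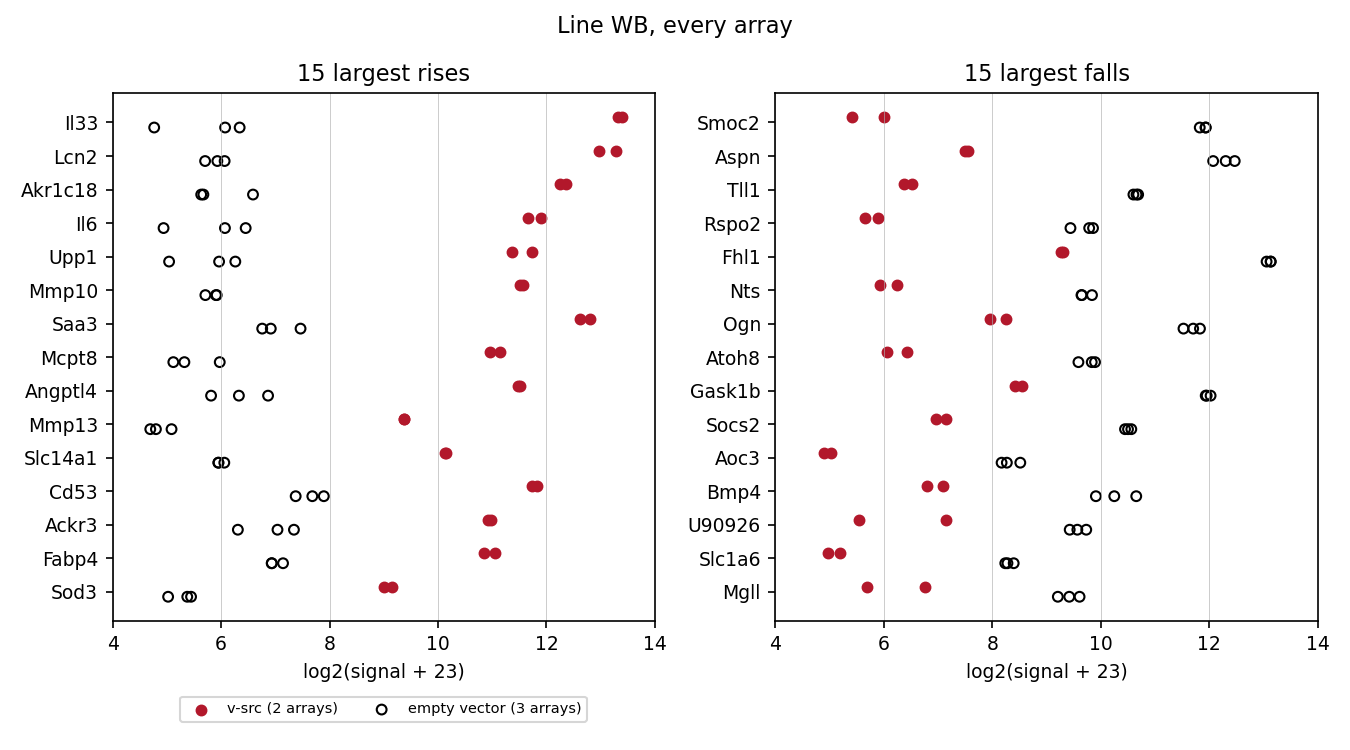
Signal on every WB array, as log2(signal + 23), of the 15 genes that rose furthest (left) and the 15 that fell furthest (right). Filled points are the 2 v-src arrays and open points the 3 empty-vector arrays; the groups do not overlap for any of the 30 genes, which was a condition for choosing them.

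The stretch around the start site is shown for the members of the 15 largest rises whose windows hold letters of a known motif. The windows are those of RefSeq on GRCm38.p6, 250 bases before to 50 after a start, and both strands were searched for 5 motifs picked after the changes were seen: AP-1 (TGANTCA), STAT (TTCNNNGAA), C/EBP (TTGCNNAA), NF-kappaB and the CArG box. Of the 15 largest rises, 11 had a window; 8 held at least one motif and 3 held none. Capitals mark the matches in the following windows, which belong to Il33 (chr19:29945540-29945839, + strand, one of its 2 windows; C/EBP), Il6 (chr5:30012864-30013163, + strand; AP-1, C/EBP and NF-kappaB letters, in that order), Mmp10 (chr9:7502092-7502391, + strand; C/EBP, then AP-1), Mmp13 (chr9:7272264-7272563, + strand; AP-1), Upp1 (chr11:9117758-9118057, + strand, one of its 3 windows; AP-1), Lcn2 (chr2:32387690-32387989, − strand; C/EBP), Saa3 (chr7:46715627-46715926, − strand; C/EBP) and Ackr3 (chr1:90203730-90204029, + strand; C/EBP).
Il33: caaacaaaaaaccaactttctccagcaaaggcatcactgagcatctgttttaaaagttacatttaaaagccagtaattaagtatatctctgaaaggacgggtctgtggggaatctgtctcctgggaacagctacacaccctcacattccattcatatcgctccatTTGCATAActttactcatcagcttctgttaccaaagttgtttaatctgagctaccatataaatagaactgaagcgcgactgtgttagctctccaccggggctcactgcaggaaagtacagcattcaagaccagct
Il6: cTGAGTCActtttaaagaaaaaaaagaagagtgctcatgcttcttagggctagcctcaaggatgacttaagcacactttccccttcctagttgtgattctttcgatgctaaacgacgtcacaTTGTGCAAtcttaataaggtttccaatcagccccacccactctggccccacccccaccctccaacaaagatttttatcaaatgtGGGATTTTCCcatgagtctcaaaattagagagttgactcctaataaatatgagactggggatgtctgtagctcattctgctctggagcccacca
Mmp10: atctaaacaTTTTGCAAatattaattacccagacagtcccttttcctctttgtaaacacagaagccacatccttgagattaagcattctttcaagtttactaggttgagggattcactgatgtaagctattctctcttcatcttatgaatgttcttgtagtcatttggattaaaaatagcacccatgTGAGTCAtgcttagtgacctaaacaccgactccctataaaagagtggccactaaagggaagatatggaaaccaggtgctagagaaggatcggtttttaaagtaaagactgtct
Mmp13: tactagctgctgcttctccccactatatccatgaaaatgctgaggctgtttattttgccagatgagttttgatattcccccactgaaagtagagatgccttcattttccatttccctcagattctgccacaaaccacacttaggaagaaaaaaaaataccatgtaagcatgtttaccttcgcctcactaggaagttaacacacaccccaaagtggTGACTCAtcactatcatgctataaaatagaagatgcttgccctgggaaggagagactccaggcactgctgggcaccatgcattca
Upp1: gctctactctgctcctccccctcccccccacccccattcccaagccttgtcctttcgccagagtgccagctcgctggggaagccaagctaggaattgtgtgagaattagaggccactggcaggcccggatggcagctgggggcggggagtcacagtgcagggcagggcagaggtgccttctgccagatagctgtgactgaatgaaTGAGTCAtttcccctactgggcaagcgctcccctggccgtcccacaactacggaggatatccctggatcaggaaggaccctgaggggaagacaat
Lcn2: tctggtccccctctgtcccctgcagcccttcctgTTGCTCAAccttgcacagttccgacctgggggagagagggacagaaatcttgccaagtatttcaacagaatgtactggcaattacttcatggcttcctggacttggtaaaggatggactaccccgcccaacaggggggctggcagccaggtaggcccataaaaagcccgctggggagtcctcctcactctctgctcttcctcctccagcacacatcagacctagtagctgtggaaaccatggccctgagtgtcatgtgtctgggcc
Saa3: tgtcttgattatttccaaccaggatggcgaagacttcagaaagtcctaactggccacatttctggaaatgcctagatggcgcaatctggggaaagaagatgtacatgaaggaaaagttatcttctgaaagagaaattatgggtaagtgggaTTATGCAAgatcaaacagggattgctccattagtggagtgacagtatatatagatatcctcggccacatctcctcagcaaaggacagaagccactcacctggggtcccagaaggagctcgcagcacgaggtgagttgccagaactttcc
Ackr3: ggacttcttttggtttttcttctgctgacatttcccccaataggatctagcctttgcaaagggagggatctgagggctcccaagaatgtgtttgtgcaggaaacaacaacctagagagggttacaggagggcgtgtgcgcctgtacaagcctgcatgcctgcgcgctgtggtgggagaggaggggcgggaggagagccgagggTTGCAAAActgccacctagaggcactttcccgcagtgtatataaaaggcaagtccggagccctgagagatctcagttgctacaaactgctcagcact
A match is a run of letters and not a measured binding site. Among the 388 genes with a window that rose at least 2-fold, 13.7% held the AP-1 letters, compared with 7.95% of the 264 that fell at least 2-fold and 6.80% of all 10489 tested genes with a window. The C/EBP letters were in 14.9%, 13.3% and 9.95% of the same sets, the NF-kappaB letters in 10.8%, 7.95% and 8.44%, and the STAT letters in 9.02%, 6.82% and 8.26%. These shares are descriptions and were not tested.

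Many targets of IL6 and STAT3 signalling rose. Of the 19 tested members of a list of IL6 family receptors and STAT3 response genes, 13 rose and 0 fell, with a median change of 1.03, against a median of 0.02 over all genes tested. Socs3, the feedback inhibitor of gp130 signalling, had signals of 4940 and 4666 with v-src, against 539, 752 and 409 with empty vector (3.07 ± 0.30, adjusted p = 3.73e-08). Bcl3, an IkappaB-like co-activator, had signals of 1028 and 1061 with v-src, against 141, 44.9 and 62.6 with empty vector (3.44 ± 0.35). Both v-src arrays lay above all empty-vector arrays for each gene. Of the receptors, the oncostatin M receptor Osmr rose by 1.05, while Il6ra (0.01, adjusted p = 0.971) and the shared subunit Il6st (-0.27, adjusted p = 0.207) did not pass. The list includes Lcn2 and Saa3 given above. Timp1, the brightest member that did not pass, had signals of 9134 and 8047 with v-src, against 8506, 9739 and 9517 with empty vector. Socs2, which restrains growth hormone signalling and is not in that list, fell by 3.45 ± 0.21 on the log2 scale: its signals were 102 and 118 with v-src, against 1426, 1372 and 1489 with empty vector. Its other probe sets moved by -3.11 to 0.55 and so disagree.

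NF-kappaB genes that passed had all risen, while chemokines and cytokines included falls. Of 18 NF-kappaB subunits, inhibitors and targets, 6 rose, 0 fell and 12 did not pass. Nfkbiz, a nuclear IkappaB protein, had signals of 4389 and 4247 with v-src, against 773, 853 and 668 with empty vector (2.47 ± 0.14). Tnfaip2 rose by 2.14, the prostaglandin synthase Ptgs2 by 2.00 and the early response gene Ier3 by 1.36, while the inhibitor Nfkbia (0.28, adjusted p = 0.0534) did not pass. Among 13 chemokine and chemokine receptor genes, 4 rose and 2 fell. The neutrophil attractant Cxcl5 had signals of 3558 and 3994 with v-src, against 510, 558 and 622 with empty vector (2.70 ± 0.28), and Cxcl1 rose by 1.24. Cx3cl1, a membrane-bound chemokine, fell by 1.28 on the log2 scale, and the monocyte attractant Ccl2 was at 1842 and 1834 with v-src, against 1597, 1621 and 1527 with empty vector (adjusted p = 0.483). Of 16 cytokine ligands, 6 rose and 4 fell, with a change of -3.08 for Tgfb2. Of 11 genes of prostaglandin synthesis and reception, 5 rose and 0 fell, with the terminal synthase Ptges at 1019 and 852 with v-src, against 274, 256 and 265 with empty vector (1.73 ± 0.25).

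Some innate sensor and antigen presentation genes rose. Of 14 Toll-like receptor and sensor genes 4 rose, 0 fell and 10 did not pass. Cd14, the lipopolysaccharide co-receptor and a monocyte marker, had signals of 1131 and 869 with v-src, against 213, 295 and 307 with empty vector (1.80 ± 0.24), and the adaptor Myd88 rose by 0.75. Of 12 MHC class I genes 4 rose, 0 fell and 8 did not pass, led by the transactivator Nlrc5 (1.76). The probe sets of H2-D1 moved by -0.53 to 1.57 and belong to near-identical paralogs, so its rise of 1.42 is uncertain. Of 27 antioxidant and aldo-keto reductase genes, which include Akr1c18 and Sod3, 8 rose and 7 fell. Haem oxygenase Hmox1 had signals of 1839 and 2076 with v-src, against 610, 386 and 714 with empty vector (1.78 ± 0.20).

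Rises outnumbered falls among immediate early and ERK feedback genes. Of 26 AP-1 and immediate early genes, 12 rose and 3 fell, and of 25 genes of ERK feedback 12 rose and 3 fell. The transcription factor Egr3 had signals of 1138 and 1282 with v-src, against 126, 144 and 151 with empty vector (2.92 ± 0.25), and the AP-1 subunit Junb had 1733 and 1610, against 467, 459 and 537 (1.73 ± 0.20). The ERK phosphatase Dusp6 rose by 1.58 and the EGF receptor inhibitor Errfi1 by 2.46. Spry1, a Sprouty inhibitor of receptor tyrosine kinase signalling, went the other way, with signals of 634 and 627 with v-src, against 4123, 4653 and 5414 with empty vector (-2.85 ± 0.17, adjusted p = 1.47e-11). Klf4 fell by 1.76 on the log2 scale and Ccn1, a matricellular target of serum response factor, by 1.41.

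Most of the tested hypoxia and glycolysis genes rose. Of 26 hypoxia-inducible genes outside glycolysis, 19 rose and 2 fell (median 0.86), and of 21 genes of glycolysis and lactate export 13 rose and 2 fell (median 0.80). The mean level of the glycolysis list, in log2(signal + 23), was 11.55 to 11.56 on the v-src arrays, against 10.55 to 10.57 on the empty-vector arrays. Slc16a3, which exports lactate, had signals of 4891 and 4664 with v-src, against 478, 479 and 339 with empty vector (3.42 ± 0.33, adjusted p = 3.25e-08). The glucose transporter Slc2a1 had signals of 6653 and 6279 with v-src, against 1699, 1665 and 1572 with empty vector (1.96 ± 0.11). Pdk1, which shuts pyruvate dehydrogenase, rose by 2.50 and the neuronal-type glucose transporter Slc2a3 by 3.12. Bnip3, a mitophagy receptor, had signals of 6394 and 6478 with v-src, against 476, 493 and 457 with empty vector (3.70 ± 0.25). Stc1, a secreted glycoprotein, rose by 3.77 and the prolyl hydroxylase Egln3 by 2.33, while Pgk1, the brightest glycolytic gene, was at 18011 and 16853 with v-src, against 15665, 15987 and 15453 with empty vector (adjusted p = 0.401). Its 2 dimmer probe sets moved by 0.41 and 1.36. Glycogen and pentose phosphate genes followed, with 8 of 16 up and 2 down, led by glycogen synthase Gys1 (1.51).

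Sterol and fatty acid synthesis rose more modestly but in many members, with 15 of 25 up and 1 down (median 0.43). Fdft1, squalene synthase, had signals of 5239 and 4635 with v-src, against 2318, 2684 and 2568 with empty vector (0.96 ± 0.12), and Dhcr7, the last enzyme of cholesterol synthesis, had 987 and 1058, against 634, 536 and 575 (0.79 ± 0.12). The stearoyl desaturase Scd2 did not pass (0.37, adjusted p = 0.0604). Of 14 cathepsins and lysosomal proteins, 7 rose and 0 fell, and cathepsin L (Ctsl) had signals of 14945 and 13883 with v-src, against 7365, 8131 and 8160 with empty vector (0.87 ± 0.12). Of 24 endoplasmic reticulum chaperones and unfolded protein response genes, 8 rose and 4 fell, with Sdf2l1 up by 1.35 and Atf6 down (-0.78). The respiratory chain and ATP synthase, by contrast, had 2 of 40 members up and 4 down, below the shares over all genes.

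Matrix proteases differed by family. Of 14 matrix metalloproteinases 6 rose, 1 fell and 7 did not pass. Besides Mmp10 and Mmp13, stromelysin-1 (Mmp3) had signals of 1076 and 1238 with v-src, against 109, 118 and 51.8 with empty vector (3.40 ± 0.26), and the gelatinase Mmp2 had 7824 and 7398, against 2930, 3376 and 3810 (1.18 ± 0.17). The membrane-bound Mmp14 was bright in both groups and did not pass (0.23, adjusted p = 0.101). Timp3, a matrix-bound metalloproteinase inhibitor, had signals of 1637 and 1785 with v-src, against 11791, 12845 and 13318 with empty vector (-2.87 ± 0.18, adjusted p = 3.56e-11), and its 3 other probe sets fell alike, by -2.85 to -3.36. Of 19 Adam and Adamts proteases 4 rose and 8 fell, with the aggrecanase Adamts4 up by 2.93 and Adamts5 down (-1.77). The plasminogen system had 3 of 13 up and 4 down, and the urokinase receptor Plaur had signals of 3465 and 3426 with v-src, against 1533, 1658 and 1561 with empty vector (1.11 ± 0.19). Hyaluronan and sulfated glycan genes had 7 of 27 up and 7 down. The hyaluronan synthase Has1 rose by 2.98 and the hyaluronan-degrading Cemip fell by 2.76 on the log2 scale, although its dimmer probe sets moved by -0.44 and 0.71.

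**Figure D3:**
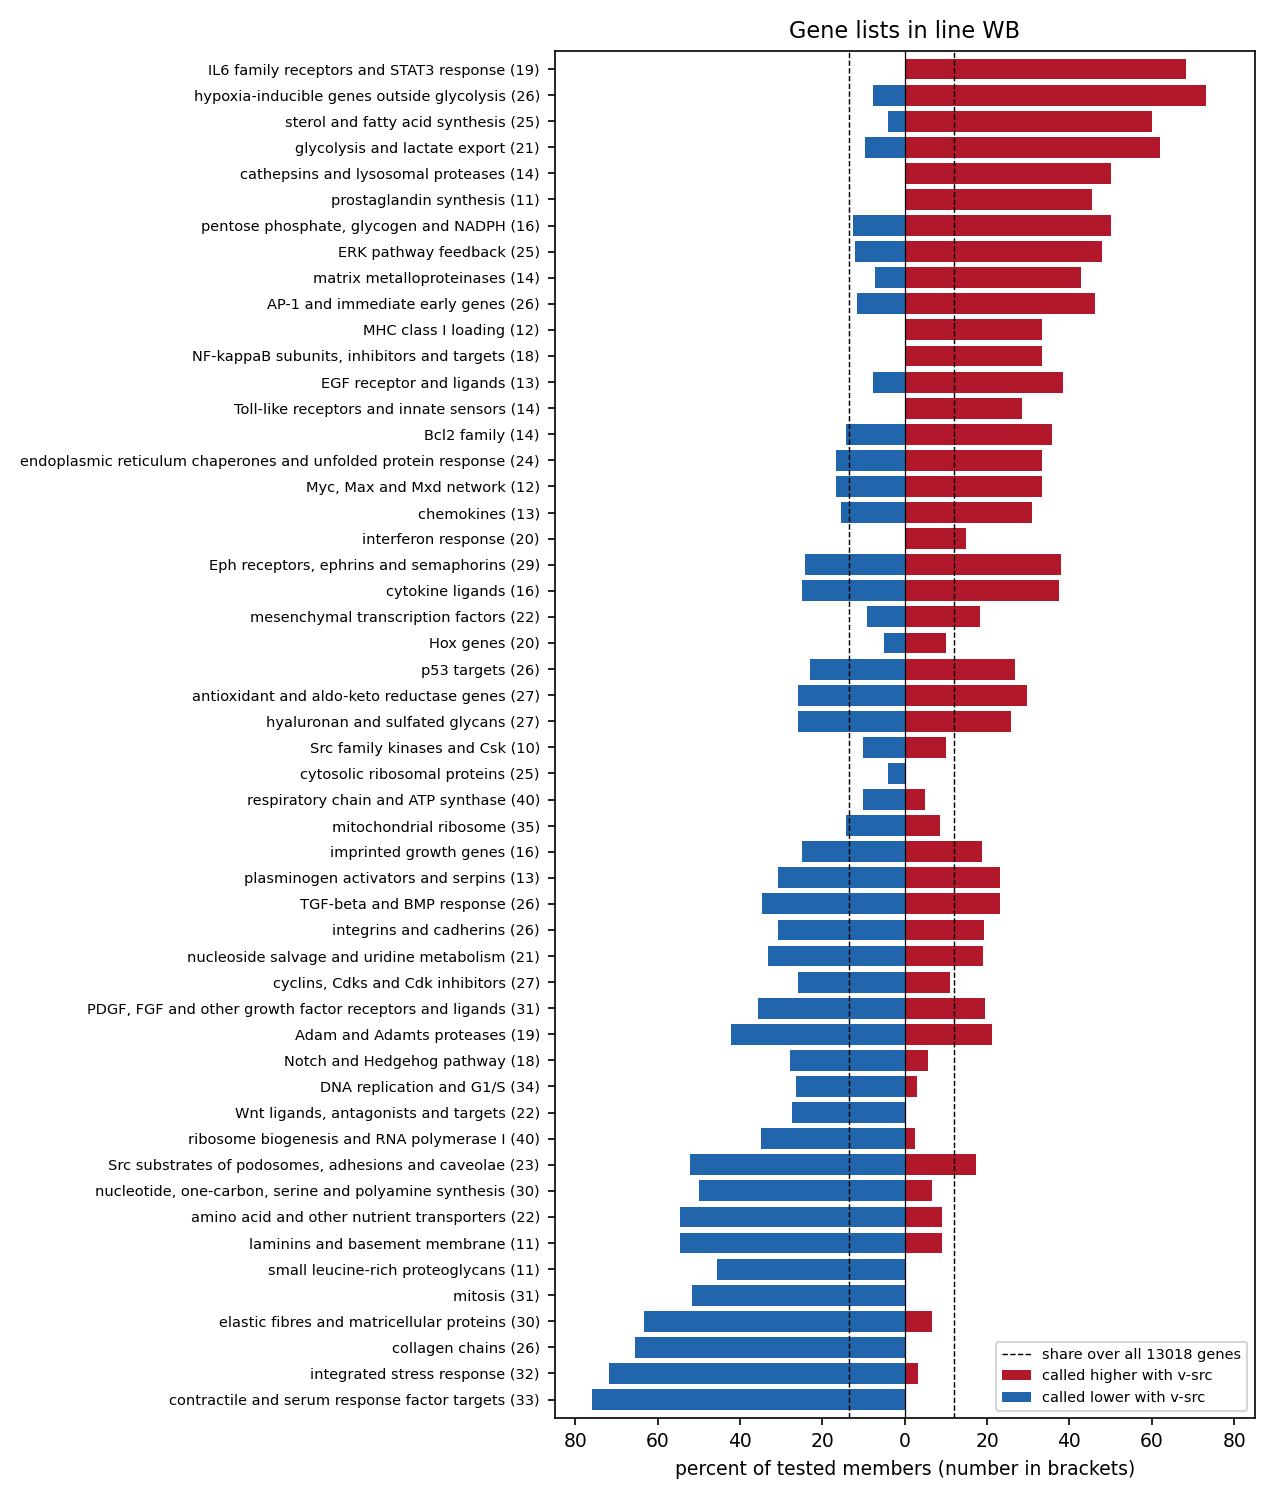
Share of the tested members of each gene list that rose (right of 0) or fell (left of 0) with v-src in line WB, in percent, for lists with at least 10 tested members (number in brackets). Dashed lines mark the shares over all 13018 genes, 12.0% up and 13.5% down; the IL6 and hypoxia lists stand at the top, and the collagen, integrated stress and contractile lists at the bottom.

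The 15 largest falls included genes of matrix proteins and of BMP and Wnt signalling. Smoc2, a calcium-binding matricellular protein, had signals of 41.3 and 19.4 with v-src, against 3894, 3603 and 3876 with empty vector. Its change was the lowest in the line (-6.19 ± 0.30, adjusted p = 4.29e-13), and a second probe set fell by 5.18. Aspn, a small leucine-rich proteoglycan, had signals of 164 and 158 with v-src, against 5028, 4278 and 5648 with empty vector (-4.76 ± 0.38). Ogn, another of that family, had signals of 224 and 280 with v-src, against 3312, 2921 and 3612 with empty vector (-3.59 ± 0.31). Of 11 tested small leucine-rich proteoglycans, 5 fell and 0 rose. Tll1, a metalloproteinase related to BMP1 that processes procollagen, had signals of 68.6 and 59.9 with v-src, against 1593, 1530 and 1627 with empty vector (-4.20 ± 0.28). Rspo2, a secreted enhancer of Wnt signalling, had signals of 36.2 and 27.0 with v-src, against 672, 904 and 859 with empty vector (-3.93 ± 0.43), and a dimmer probe set moved by -0.78. Bmp4 itself had 114 and 88.3 with v-src, against 1193, 939 and 1587 (-3.32 ± 0.44), and Smad6, an inhibitory Smad that BMP signalling induces, had 268 and 256, against 2255, 2408 and 2521 (-3.08 ± 0.15). The transcription factor Atoh8 (-3.53), the kinase-like Gask1b (-3.49), the amine oxidase Aoc3 (-3.35), the glutamate transporter Slc1a6 (-3.22) and the lipase Mgll (-3.19) also fell, though the other probe sets of Mgll moved by -1.62 to -0.07. The transcript U90926 had signals of 23.6 and 119 with v-src, against 736, 665 and 827 with empty vector (-3.23 ± 0.70), and it lost its call without v-src replicate 2 (adjusted p = 0.0595).

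The TGF-beta and BMP response list was not uniform, with 9 of 26 down and 6 up. Tgfbi, a secreted TGF-beta-induced adhesion protein, had signals of 3353 and 3700 with v-src, against 778, 731 and 771 with empty vector (2.18 ± 0.29). Imprinted growth genes were split as well, with 3 of 16 up and 4 down. Dlk1, a Notch-like inhibitor of adipocyte differentiation, had signals of 3168 and 3474 with v-src, against 15153, 16502 and 16753 with empty vector (-2.27 ± 0.40), and Peg3 rose by 1.35. Among 22 mesenchymal transcription factors 4 rose (18.2%, against 12.0% of all genes) and 2 fell (9.09%, against 13.5%), so the list was near the shares over all genes. Sox11 was up by 1.83 and Prrx2 down (-1.66).

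Most of the tested collagens and elastic and matricellular genes fell. Of 26 tested collagen chains 17 fell and 0 rose (median -0.98), and of 30 elastic fibre and matricellular genes 19 fell and 2 rose (median -0.67). Postn, periostin, had signals of 2746 and 3214 with v-src, against 17164, 18062 and 18403 with empty vector (-2.58 ± 0.27). Ccn2, connective tissue growth factor, had signals of 2095 and 2142 with v-src, against 14217, 14521 and 15561 with empty vector (-2.79 ± 0.25). Col12a1, a fibril-associated collagen, had signals of 181 and 226 with v-src, against 865, 836 and 1049 with empty vector (-2.05 ± 0.19), with its other probe sets between -1.01 and -0.15. The brightest collagen, Col1a2, did not pass (-0.34, adjusted p = 0.0729), although 2 dimmer probe sets of it moved by -1.36 and -1.69 and the mean of its probe sets passed (-1.13, adjusted p = 4.94e-07). Laminins and basement membrane genes had 6 of 11 members down and 1 up.

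The contractile genes had the highest share of falls among the lists shown, 25 of 33, with 0 up and a median of -0.67. They include targets of serum response factor, which with its actin-sensing co-factors drives smooth muscle and stress fibre genes. Lmod1, a leiomodin that nucleates actin filaments, had signals of 36.2 and 86.7 with v-src, against 678, 572 and 594 with empty vector (-2.98 ± 0.47). Actg2, smooth muscle gamma-actin, had signals of 2031 and 2141 with v-src, against 5808, 5707 and 6309 with empty vector (-1.50 ± 0.20). The cytoplasmic actin Actg1 was at 17126 and 16939 with v-src, against 18960, 20425 and 19943 with empty vector, which did not pass (adjusted p = 0.186).

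Fhl1, a LIM-domain protein of muscle and stress fibres, showed the smallest adjusted p among the 30 largest changes. It had signals of 592 and 608 with v-src, against 8496, 8946 and 8962 with empty vector (-3.82 ± 0.12, adjusted p = 7.25e-17), while a dimmer probe set moved by -0.42 only. Of the 15 largest falls 11 had a promoter window, 3 with a motif and 8 with none. The motifs in the windows of Gask1b and Nts were AP-1 letters. CArG letters, the serum response factor motif, were also in the windows of Lmcd1 and Cbr2, whose changes in WB were 2.80 and 2.25. Of the 11 falls with a window, Fhl1 alone held a CArG box. That window is shown (chrX:56779433-56779732, + strand, one of its 2 windows, CArG letters in capitals).
Fhl1: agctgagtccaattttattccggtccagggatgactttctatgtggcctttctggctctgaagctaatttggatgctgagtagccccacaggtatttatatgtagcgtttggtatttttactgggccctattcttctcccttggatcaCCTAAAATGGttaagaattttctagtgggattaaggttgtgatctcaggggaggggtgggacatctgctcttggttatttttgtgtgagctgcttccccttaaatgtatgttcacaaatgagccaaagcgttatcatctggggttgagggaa
CArG letters were in 5.68% of the 264 genes with a window that fell at least 2-fold, in 1.55% of the 388 that rose, and in 1.61% of all 10489.

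Substrates of Src in podosomes, adhesions and caveolae changed unevenly, with 4 of 23 up and 12 down. Cav1, the caveolar coat protein, had signals of 5135 and 5748 with v-src, against 13520, 13387 and 14146 with empty vector (-1.33 ± 0.13). Sh3pxd2b, a podosome scaffold, had signals of 3649 and 3631 with v-src, against 864, 869 and 1009 with empty vector (1.97 ± 0.11), although a dimmer probe set moved by 0.18 only. Cortactin (Cttn) did not pass (-0.07, adjusted p = 0.760). Of 26 integrins and cadherins 5 rose and 8 fell. P-cadherin (Cdh3) had signals of 91.6 and 196 with v-src, against 1068, 1279 and 1209 with empty vector (-2.93 ± 0.19), and the integrin Itgb3 had 963 and 857, against 215, 299 and 131 (2.03 ± 0.34). Of 29 Eph receptors, ephrins, semaphorins and other guidance genes 11 rose and 7 fell. Sema7a, a membrane-anchored semaphorin, had signals of 2060 and 2104 with v-src, against 279, 358 and 175 with empty vector (2.89 ± 0.28), and Ephb3 fell by 1.53 on the log2 scale.

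Growth factor genes differed by list. The EGF receptor and its ligands had 5 of 13 members up and 1 down. Falls outnumbered rises in the list of PDGF, FGF and other factors and receptors, with 11 of 31 down and 6 up. Gas6, the ligand of the TAM receptors, had signals of 691 and 749 with v-src, against 5641, 5204 and 6211 with empty vector (-2.94 ± 0.31), though a dimmer probe set moved by -0.65. Igf1 fell by 1.88 on the log2 scale. The Notch ligand Jag1 had signals of 160 and 171 with v-src, against 1513, 1271 and 1996 with empty vector (-3.07 ± 0.25), and the Notch target Hes1 had 600 and 612, against 1564, 1672 and 1798 (-1.43 ± 0.13). Of 22 tested Wnt genes 6 fell and 0 rose, and the receptor Fzd6 (-2.18) fell furthest among them. Wnt2, below the filter on signal, was at 8.85 and 14.7 with v-src, against 284, 366 and 274 with empty vector. Frzb, also below the filter, was at 69.8 and 46.3, against 12.1, 37.3 and 10.9.

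Most of the tested integrated stress response genes fell. Of 32 genes of the integrated stress response, the programme by which ATF4 induces amino acid transporters, synthetases and serine synthesis, 23 fell and 1 rose (median -0.47). Slc7a5, the large neutral amino acid transporter, had signals of 1791 and 2096 with v-src, against 7035, 6844 and 7050 with empty vector (-1.84 ± 0.15, adjusted p = 1.91e-09). Psph, the last enzyme of serine synthesis, had signals of 857 and 1108 with v-src, against 2997, 2671 and 3342 with empty vector (-1.59 ± 0.13). Slc38a2, a glutamine transporter of the same programme, did not pass (-0.09, adjusted p = 0.519). Nucleotide, one-carbon, serine and polyamine synthesis, which shares members with that list, had 15 of 30 down and 2 up.

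Many mitosis genes fell, by small amounts. Of 31 mitosis genes 16 fell and 0 rose (median -0.46), and of 34 replication and G1/S genes 9 fell and 1 rose. The kinesin Kif11 had signals of 862 and 1027 with v-src, against 1808, 1895 and 1827 with empty vector (-0.95 ± 0.15), and survivin (Birc5) had 3040 and 3068, against 5396, 5738 and 5181 (-0.83 ± 0.13). The clamp Pcna did not pass (-0.02, adjusted p = 0.918). Of 27 cyclins, Cdks and Cdk inhibitors 3 rose and 7 fell (median -0.06). The Cdk inhibitor Cdkn1a had signals of 1533 and 1635 with v-src, against 342, 268 and 347 with empty vector (2.24 ± 0.27). Cyclin D2 (Ccnd2) had 4775 and 4699, against 10793, 10922 and 12064 (-1.24 ± 0.12). Of 26 p53 targets 7 rose and 6 fell. Of 14 Bcl2 family genes 5 rose and 2 fell, with the pro-apoptotic Pmaip1 at 361 and 340 with v-src, against 45.1, 59.7 and 97.3 with empty vector (2.09 ± 0.36). Ribosome biogenesis genes had 14 of 40 down and 1 up, and cytosolic ribosomal proteins 1 of 25 down and 0 up.

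Neither mouse Src nor mouse Myc passed the test. Src had signals of 1666 and 1741 with v-src, against 1672, 1731 and 1593 with empty vector (0.03 ± 0.14, adjusted p = 0.898), and its mouse probe set may not detect the viral transcript, so it does not check the labels. Of 10 tested Src family kinases and their regulators 1 rose and 1 fell (10% each, against 12.0% and 13.5% of all genes). The phosphatase Ptpn1 had signals of 1923 and 1870 with v-src, against 1442, 1342 and 1457 with empty vector (0.42 ± 0.08), and its call was lost when probe sets were averaged (adjusted p = 0.0580). The Csk anchor Pag1 had 94.5 and 96.1 with v-src, against 204, 250 and 261, but its 3 other probe sets moved by -0.02 to 0.75. Yes1, Fyn, Fgr, Blk, Frk, Csk and Ptpra had changes between -0.06 and 0.42 and adjusted p from 0.155 to 0.963. Myc had signals of 2584 and 3039 with v-src, against 2908, 3020 and 3335 with empty vector (adjusted p = 0.600). Of 12 tested Myc network genes 4 rose and 2 fell. Mxi1, an antagonist of Myc, had signals of 2774 and 2620 with v-src, against 906, 1034 and 860 with empty vector (1.51 ± 0.18), and Mlx rose by 1.39. The changes of Mxd1 (1.06), Mxd4 (-1.43), Mxd3 (-0.49) and Mnt (0.49) each lost their call when 1 v-src array was left out. Those of Mxd1, Mxd3 and Mxd4 were also lost without the filter on signal, and that of Mxd4 was -0.30 when probe sets were averaged (adjusted p = 0.393). Mycn, Mycl, Max, Mlxip and Mga did not pass.

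Fibroblast markers, the check of the labelled cell type, were bright in both groups. The 17 tested fibroblast markers had a mean level of 12.13 to 12.22 with v-src, against 12.43 to 12.53 with empty vector, in log2(signal + 23), and Vim was at 19310 and 18636 with v-src, against 20012, 23034 and 22065 with empty vector. Within that list 2 rose and 6 fell: podoplanin (Pdpn) rose by 1.51 and Pdgfrb fell by 1.32 on the log2 scale. Of 22 macrophage and blood cell markers 12 were tested, and 2 rose (16.7%, near the 12.0% of all genes), Mcpt8 and Cd53 (given above), with 0 down. The mean level of those 12 was 8.14 to 8.17 with v-src, against 7.16 to 7.28 with empty vector, while their median change was 0.22 and Mcpt8 (5.58) and Cd53 (4.13) were the highest. The pan-leukocyte marker Ptprc, below the filter on signal, was at 17.5 and 43.0 with v-src, against 47.9, 70.1 and 6.75 with empty vector, and Itgam was at 30.6 and 52.2, against 46.4, 60.8 and 23.6. Cd68 was at 119 and 118 with v-src, against 96.1, 74.4 and 102 with empty vector (adjusted p = 0.468). None of the 5 endothelial and 9 epithelial markers tested passed in either direction. Of 8 skeletal muscle markers 2 rose and 2 fell, of 10 neural and glial markers 2 rose and 1 fell, and of 10 adipocyte and chondrocyte markers 2 rose and 2 fell. The neuronal growth cone protein Gap43 had signals of 481 and 464 with v-src, against 17.9, 73.2 and 60.3 with empty vector (2.85 ± 0.30), while the microtubule protein Map2 had 199 and 195, against 1514, 1248 and 1481 (-2.70 ± 0.19). What part other cell types had in these changes was not tested. In bulk RNA, more cells of a type and more RNA per cell cannot be told apart.

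Most of the strong WB response was shared with the other lines, each set against its own empty-vector arrays. Of the 490 genes that rose at least 2-fold in WB, 273 (55.7%) also rose in both WA and WC, against 7.08% of all genes; they are 29.6% of the 922 genes that rose in both. Of the 351 that fell at least 2-fold, 216 (61.5%) also fell in both, against 8.13% of all genes, and are 20.4% of the 1058 that fell in both. The 29.6% and 20.4% set 2-fold changes in WB against changes of any size in WA and WC. With any size in WB, 66.5% of the 922 also rose and 69.3% of the 1058 also fell. Il33 shows such a gene, with changes of 7.64 in WB, 6.74 in WA and 7.39 in WC. Counting either size of change, 6 genes rose in WB and fell in both other lines, and 9 did the reverse. From these, chosen after their values were seen, Igfbp4 averaged 9251 ± 882 with v-src (SD, n = 2), against 3993 ± 355 with empty vector (SD, n = 3), in WB, while it fell in WA (-0.80) and WC (-1.14). The receptor Met fell in WB by 1.00 on the log2 scale and rose in WA by 0.41 and in WC by 0.54.

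The test of the difference itself, the WB change minus the mean change of WA and WC, called 500 genes higher in WB (3.84%) and 496 lower (3.81%). Without v-src replicate 2 these were 198 and 195, without v-src replicate 3 they were 213 and 275, and without empty-vector replicate 3 the lower count was 329. Against WA, WC and their mean alike, 156 genes were higher (1.20%) and 153 lower (1.18%). Against WA alone 403 were higher (3.10%) and 371 lower (2.85%), and against WC alone 551 (4.23%) and 630 (4.84%). The counts against all became 79 and 62 without v-src replicate 2 and 80 higher without v-src replicate 3. Lcn2 and Saa3 had the highest differences in the first set. Lcn2 averaged 8960 ± 1345 with v-src in WB, against 37.0 ± 7.45 with empty vector, whereas v-src arrays averaged 40 ± 11.3 in WA and 512 ± 59.4 in WC. Its difference was 5.42 (adjusted p = 7.06e-09). Saa3 averaged 6692 ± 646 with v-src in WB, against 112 ± 36.5 with empty vector, and 142 ± 26.1 and 125 ± 15.2 with v-src in WA and WC, a difference of 4.81 (adjusted p = 2.5e-06). Il6 averaged 3507 ± 437 with v-src in WB, and 532 ± 151 and 243 ± 64.1 with v-src in WA and WC, a difference of 3.32 (adjusted p = 2.9e-05). Mmp2 rose in WB (1.18) and fell in WA (-1.47), with a change of -0.37 in WC that did not pass (adjusted p = 0.073).

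Of the 153 genes in the second set, 110 had their highest empty-vector mean in WB, as did 30.8% of all genes. The WB empty-vector level is subtracted in the WB change, so a high level itself favours entry to the set. The 2 shares are therefore no test. Decorin (Dcn) averaged 16436 ± 479 with v-src in WB, against 8784 ± 1288 with empty vector. In WA it averaged 4059 ± 283 with v-src, against 430 ± 221, and in WC 16429 ± 621, against 285 ± 87.6. Its WB change of 0.91 did not pass with all 26 arrays fitted (adjusted p = 0.116), but it passed at the same size with the 5 WB arrays alone (9.17e-05), the 8 WB arrays (5.7e-05) or the higher pseudocount (0.0331); the difference was -3.64 (adjusted p = 4.23e-05). A dimmer Dcn probe set moved by -0.04 in WB. Serpinb2, the plasminogen activator inhibitor PAI-2, averaged 8902 ± 688 with v-src in WB, against 1427 ± 296 with empty vector, a change of 2.64. It rose by 7.25 in WA and 6.23 in WC, where it averaged 52.4 and 31.5 with empty vector. Ccn3, a matricellular growth regulator, averaged 1179 ± 89.0 with v-src in WB, against 6022 ± 517 with empty vector (-2.33), and rose in WA (2.32) and WC (2.11), the largest negative difference (-4.54, adjusted p = 6.21e-06). The neuropeptide Nts averaged 45.3 ± 10.6 with v-src in WB, against 816 ± 65.2 with empty vector, and was at or below 48.9 on average in both groups of WA and WC.

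**Figure D4:**
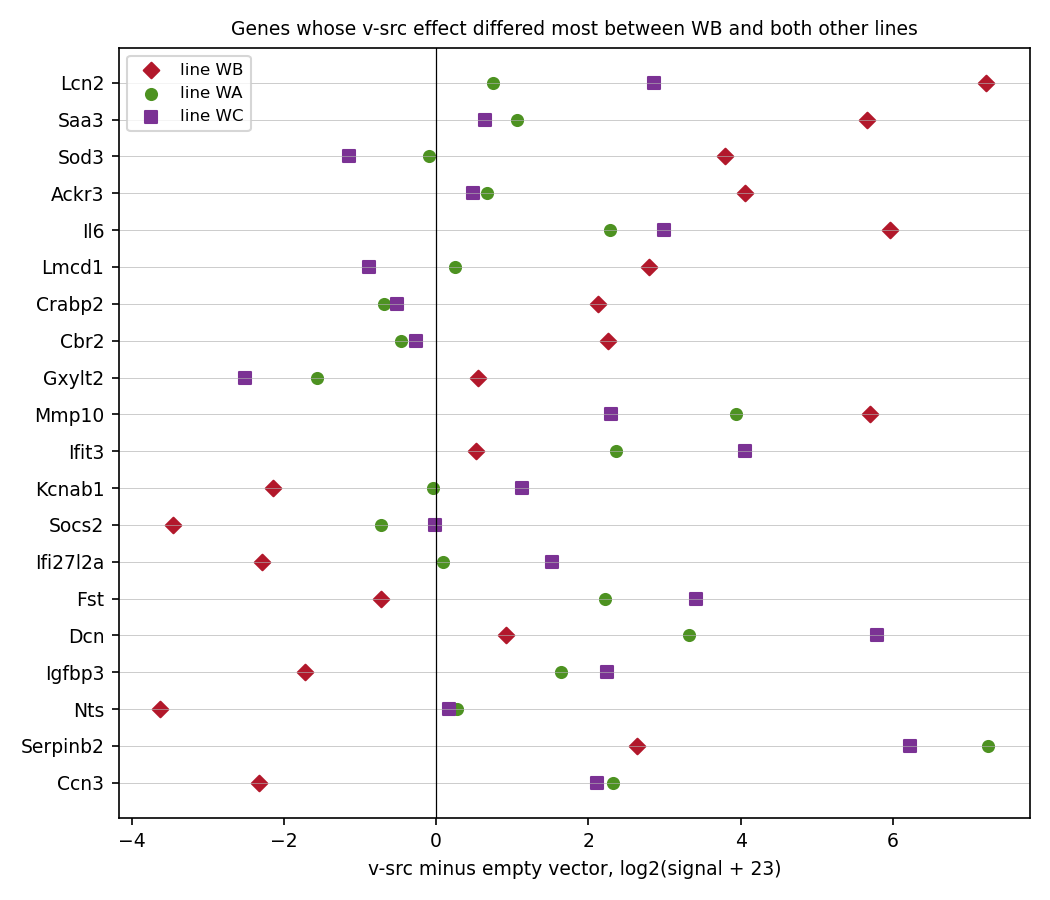
v-src minus empty vector, in log2(signal + 23), of the 10 genes with the largest positive (top) and the 10 with the largest negative (bottom) difference between WB and the mean of WA and WC, each also called against WA and WC alone. Diamonds are WB, circles WA and squares WC; Lcn2 stands at 7.22 in WB against 0.75 in WA and 2.86 in WC.

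Interferon response genes changed less in WB than in WC, and few differed from WA. Of 20 tested members 3 rose in WB (15%, near the 12.0% of all genes) and 0 fell. Against WC alone 14 had a lower change in WB and 1 a higher one, whereas against WA alone 2 were lower and 2 higher. Against the mean of WA and WC 12 were lower and 1 higher. The median change was 0.33 in WB, 0.93 in WA and 1.95 in WC. Ifit3, an interferon-induced protein, averaged 93.1 ± 29.6 with v-src in WB, against 57.7 ± 16 with empty vector. In WA it averaged 497 ± 136 with v-src, against 85.5 ± 52.0, and in WC 6714 ± 317, against 388 ± 85.4 (difference -2.68, adjusted p = 0.000194). The mean level of the list, in log2(signal + 23), was 7.91 with v-src in WB, against 7.57 with empty vector. In WA it was 8.80 with v-src, against 7.85, and in WC 11.30, against 9.24. Ifitm3 is the exception, with signals of 13689 and 13201 with v-src in WB, against 7448, 7726 and 7826 with empty vector (0.81), and a difference of 0.62 (adjusted p = 0.00592). Sterol and fatty acid synthesis had 8 of 25 members with a higher change in WB and 0 with a lower one (medians 0.43 in WB, 0.14 in WA and -0.21 in WC); 11 were higher against WC alone and 3 against WA alone. Mitosis genes had 6 of 31 with a lower change and 0 with a higher one (medians -0.46, -0.19 and -0.08), 8 against WC alone and 2 against WA alone.

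**Figure D5:**
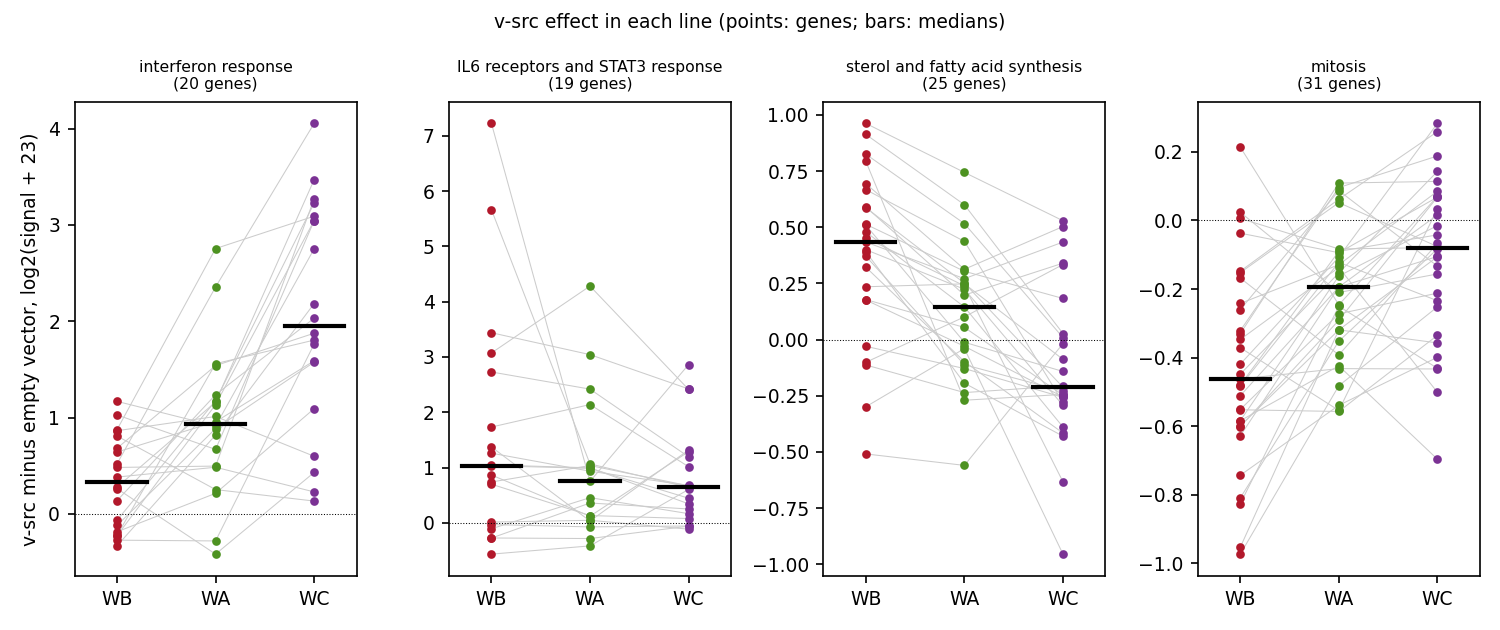
v-src minus empty vector, in log2(signal + 23), of the tested members of 4 gene lists in WB, WA and WC, one point a gene with a line joining the same gene and a bar at the median. The vertical scales differ between panels; the interferon medians are 0.33, 0.93 and 1.95, and the mitosis medians -0.46, -0.19 and -0.08.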

How the data were processed

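The deposited values are signal intensities that the authors made with MAS5, per the submitters' processing notes; on each of the 26 arrays the mean after trimming 2% at each end is 500. Of 45101 probe sets, 34958 carried 1 gene symbol in the platform annotation, 932 several and 9211 were not listed. Values were taken as log2(signal + 23), 23 being their 20th percentile. Probe sets at or below the 40th percentile of mean level were left out, and the brightest of each gene was kept, giving 13018 genes. limma 3.58.1 in R 4.3.3 fitted 9 group means to 26 arrays, with an intensity trend and Benjamini-Hochberg adjustment; the 2 WB v-src arrays therefore borrow the spread of all groups (17 residual degrees of freedom). On simulated data 86% of genes raised by 2 (log2) and 68% of those raised by 1 were called in WB. That simulation changed 50 genes at each size among 13018, with independent noise. The share changed was far below the 25.5% called in the real data, so these rates are not those of the real test. Array number limits the precision.

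The members and lists were chosen with earlier results of these data known. Named genes are the 15 largest rises and 15 largest falls whose arrays do not overlap, up to 4 called members and the brightest one not called of each list, the 10 largest differences each way from both other lines, and called markers of other cell types; all others were named after their values were seen. Alternatives changed normalization, pseudocount, filter, probe sets, variance trend, replicate block, arrays fitted and each array in turn.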

Additional observations from a re-analysis of the deposited data

Results flagged for a closer look

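The genes below are the named ones whose v-src change in WB differed from the mean of WA and WC and from each of those lines alone (limma, adjusted p below 0.05 for each); values are WB minus the mean of the other lines, in log2(signal + 23). For 7 of the 44, the call on the difference from the mean was lost under at least one alternative. Whether the calls against WA alone and WC alone held was not followed gene by gene. Higher and lower refer here to the v-src change and not to the level of a gene. Inflammatory and acute-phase genes had a higher change in WB: Lcn2 by 5.42, Saa3 by 4.81 and Il6 by 3.32. So had the chemokine scavenger Ackr3, by 3.48, and the interferon-induced Ifitm3, by 0.62. The Toll adaptor Ticam1 was higher by 1.12. Redox and lipid-handling genes were higher as well, Sod3 by 4.42, the carbonyl reductase Cbr2 by 2.61, the retinoic acid binding protein Crabp2 by 2.72, Fabp4 by 2.55 and Dhcr7 by 1.05. Among protease and podosome genes, Mmp10 was higher by 2.58, Mmp2 by 2.10 and Sh3pxd2b by 1.08. The Sh3pxd2b call was lost when probe sets were averaged (0.46, adjusted p = 0.117). The glycosyltransferase Gxylt2 was higher by 2.59, with changes of 0.55 in WB, -1.56 in WA and -2.52 in WC. Regulators and transporters were higher too: Lmcd1 by 3.12, Sox11 by 2.10, Egr3 by 1.94, the guidance ligand Ntn1 by 1.58, Slc14a1 by 1.89 and the metal transporter Slc39a14 by 0.50.

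Matrix and secreted genes had a lower change in WB, with differences of -4.54 for Ccn3, -4.10 for Serpinb2, -3.84 for Nts and -3.67 for Igfbp3. Those of Dcn (-3.64), the activin antagonist Fst (-3.54), Smoc2 (-2.01) and Tll1 (-1.85) were lower as well. Serpinb2 changed by 2.64 and Dcn by 0.91 in WB itself, less than in WA and WC. Interferon-induced Ifi27l2a (-3.09) and Ifit3 (-2.68) also had a lower change. Among regulators, Socs2 differed by -3.08, the potassium channel subunit Kcnab1 by -2.69, Fhl1 by -1.79, Spry1 by -1.48, Smad6 by -0.91 and Errfi1 by -0.63. The lipase Mgll differed by -2.29, the surface protein Pdpn by -1.53 and Psph by -0.82. Small differences were called for Mrps15 (-0.67), the centromere motor Cenpe (-0.59), Rpl14 (-0.59) and the DNA ligase Lig1 (-0.52).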

How the results depend on the processing

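The alternatives besides leaving out an array moved no count of genes by more than 1.5 times; fitting only the 5 WB arrays gave 2041 up and 2342 down. Leaving out each of 5 arrays gave 1009 to 1411 genes up and 1031 to 1510 down in WB (at least 2-fold, 423 to 504 and 310 to 390). Leaving out each of 17 arrays gave 198 to 536 genes higher and 195 to 591 lower than the mean of WA and WC. Against WA alone these were 193 to 472 and 177 to 481, against WC alone 301 to 638 and 328 to 732, and against all of them 79 to 173 and 62 to 184. Every lowest count was without WB v-src replicate 2. The fit with a replicate block gave 1457 genes up and 1657 down (489 and 358 at least 2-fold), and 435 higher and 429 lower than the mean of WA and WC. Same-numbered WB arrays correlated by 0.06 and 0.11 in their deviations from the group means. With 2 v-src arrays those deviations mirror each other, so this check cannot tell whether the replicate numbers pair the samples. Of 225 named calls in WB 183 held under every alternative in which the gene was tested. Of 44 named differences from the mean of WA and WC, 37 did. Some named genes did not pass the filter on signal under an alternative, which was not counted as a lost call. Of 74 named genes not called in WB, 35 were called under at least 1 alternative. Among them were Dcn, Scd2, Nfkbia, Col1a2, Mmp14, Actg1, Pgk1, Mycn and Ccl2. Irak1 was reversed when probe sets were averaged, with -0.43 (adjusted p = 0.0136) in place of 0.01; its other probe sets moved by -1.18 to -0.02, and the cause was not tested. Replicates are arrays of unstated origin, dim genes understate their folds, and 2 v-src arrays limit every WB value.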
